A study of Mus musculus with 6 samples.

Results

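A panel of 9 genes that mark B cells and plasma cells was followed in bulk liver RNA-Seq of mice with a hepatocyte-specific edit of Prdx2: Cd79a, Cd79b, Ms4a1, Ighm, Igkc, Jchain, Mzb1, Pou2af1 and Tnfrsf17. They were taken by gene symbol, and all 9 were found among the 52459 genes of the count table. Livers of 3 sgPrdx2 mice (mice 1.1, 1.3 and 3.2) were compared with livers of 3 sgCtrl mice (mice 5.1, 7.1 and 7.2). All 6 were male Alb-Cre/Cas9 F1 mice on the C57BL6J strain, in which the albumin promoter drives Cre, which directs Cas9 to hepatocytes and not to B cells. Each received an AAV8 vector with a U6-driven guide RNA into a vein at 4 to 5 weeks of age, the sgCtrl guide in one group and the sgPrdx2 guide in the other. Diethylnitrosamine (DEN, a liver carcinogen) at 100 mg/kg followed 3 weeks later in both groups, and after 1 more week both were fed a choline-deficient high-fat diet (CDAHFD) for 6 months. The labels give an age of 8 months at collection, and both groups carried DEN and diet.

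B cells carry an antibody on their surface as the B cell receptor, in which the immunoglobulin chains sit beside the signaling pair encoded by Cd79a and Cd79b. After activation some become plasma cells, which give up most of the surface machinery, enlarge the endoplasmic reticulum and secrete antibody. Both kinds of cell are found in the inflamed liver, and IgA, IgG and IgM are the antibody classes they make there. In bulk tissue, fewer cells of a type and less RNA per cell cannot be told apart.

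Of the 9 genes, 8 had enough counts to be tested, and 0 of these differed between the groups past the threshold, beside 3.33% of all genes tested. The antibody genes among them (Ighm, Igkc, Jchain and Mzb1) had higher means in sgPrdx2 livers, by 1 log2 unit or less, and these means were set by 1 or 2 of the 3 livers. B cell surface genes had smaller fold changes in both directions. Cd79b was the one member whose groups did not overlap, beside 34.2% of all genes tested. Of 10 general leukocyte genes, 4 were called lower in sgPrdx2 livers, beside 1.54% of all genes tested. With libraries scaled to those genes 5 members were called higher, on a scale where 49.2% of all genes were called.

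Ighm is counted as 1 gene although B cells and plasma cells end its transcript differently. The bases below, from the GENCODE M21 transcripts on GRCm38, are shown because these bases separate surface IgM from secreted IgM, and the counts do not separate them. Lower case marks the last 24 bases that both forms share, and capitals mark the coding bases of 1 form only. Both lie on the minus strand of chromosome 12, in the coding part of Ighm, the secreted end in its 4th exon (chr12:113420870-113420952) and the membrane end across the spliced 4th to 6th exons (chr12:113418829-113420952).
Ighm secreted end: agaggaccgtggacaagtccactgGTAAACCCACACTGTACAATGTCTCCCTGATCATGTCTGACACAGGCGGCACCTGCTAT
Ighm membrane end: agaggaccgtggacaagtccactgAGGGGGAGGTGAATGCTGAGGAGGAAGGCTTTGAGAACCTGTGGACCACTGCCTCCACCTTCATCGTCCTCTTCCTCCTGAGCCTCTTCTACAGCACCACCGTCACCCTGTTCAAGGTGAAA
The secreted form continues past the shared exon boundary with 59 coding bases of its own, and the membrane form with 122. A read over the first 1305 bases of the transcript belongs to either form.

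The segment Igkv3-2 was the highest kappa variable segment of 3 livers and took over 30% of kappa variable counts in 1 of them, sgPrdx2 mouse 1.3. Its second exon on the plus strand of chromosome 6 is coding, and its first 300 bases (chr6:70698758-70699057, GRCm38) are shown, with capitals at the 21 positions that differ from Igkv3-1, the most similar of 99 other kappa segments compared.
Igkv3-2: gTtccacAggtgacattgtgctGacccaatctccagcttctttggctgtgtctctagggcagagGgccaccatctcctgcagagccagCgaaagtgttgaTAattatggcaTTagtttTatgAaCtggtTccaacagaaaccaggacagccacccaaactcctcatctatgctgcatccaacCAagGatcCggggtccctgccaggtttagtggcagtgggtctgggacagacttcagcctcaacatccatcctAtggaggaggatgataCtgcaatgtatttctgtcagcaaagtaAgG
Over the 310 coding bases of this exon the identity to Igkv3-1 was 92.9%. Of the 50-base stretches of Igkv3-2, 21.3% are also found in other kappa segments, so its counts may include or lack reads of its relatives.

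Total counts per liver ranged from 37462102 to 56865293. Values are given as CPM, the counts of a gene per 1e6 counts of its liver after TMM scaling (TMM factors were 1.12 to 1.17 for sgCtrl and 0.805 to 0.951 for sgPrdx2). Genes with enough counts (17032 of 52459) were tested with the edgeR quasi-likelihood test and Benjamini-Hochberg adjustment, and a gene was called at an adjusted p under 0.05. The targeted gene Prdx2 stood at 109, 117 and 132 CPM in sgCtrl and at 99, 112 and 149 CPM in sgPrdx2 livers. A Cas9 cut alters the sequence of a transcript and need not change its amount, so this level does not check the labels. Hepatocyte genes were higher in sgPrdx2 livers, with 5 of 10 called, all higher, beside 3.33% of all genes tested. Ttr, which encodes transthyretin, rose by 1.35 on the log2 scale (adjusted p 0.0394, edgeR).

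Compared per kilobase of exon, the levels of the 9 genes spanned over 3 orders of magnitude. In sgCtrl livers Igkc stood at 54.6 to 91.2 CPM per kilobase and Ighm at 19.5 to 25.5. The B cell receptor genes followed, Cd79b at 3.16 to 4.35 and Cd79a at 1.59 to 2.27 CPM per kilobase. Below them were Jchain (1.11 to 1.51), Pou2af1 (0.541 to 0.821), Mzb1 (0.293 to 0.508) and Ms4a1 (0.302 to 0.380). Tnfrsf17 was last, at no more than 0.0841 CPM per kilobase. Among neighbors in this order, the ranges of the 3 sgCtrl livers overlapped only between Mzb1 and Ms4a1. In sgPrdx2 livers the order changed at 2 places: Jchain (1.42 to 3.02) had a higher mean than Cd79a (1.29 to 2.06), and Mzb1 (0.506 to 1.0) a higher mean than Pou2af1 (0.446 to 0.762). The ranges overlapped within both pairs.

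**Figure D1:**
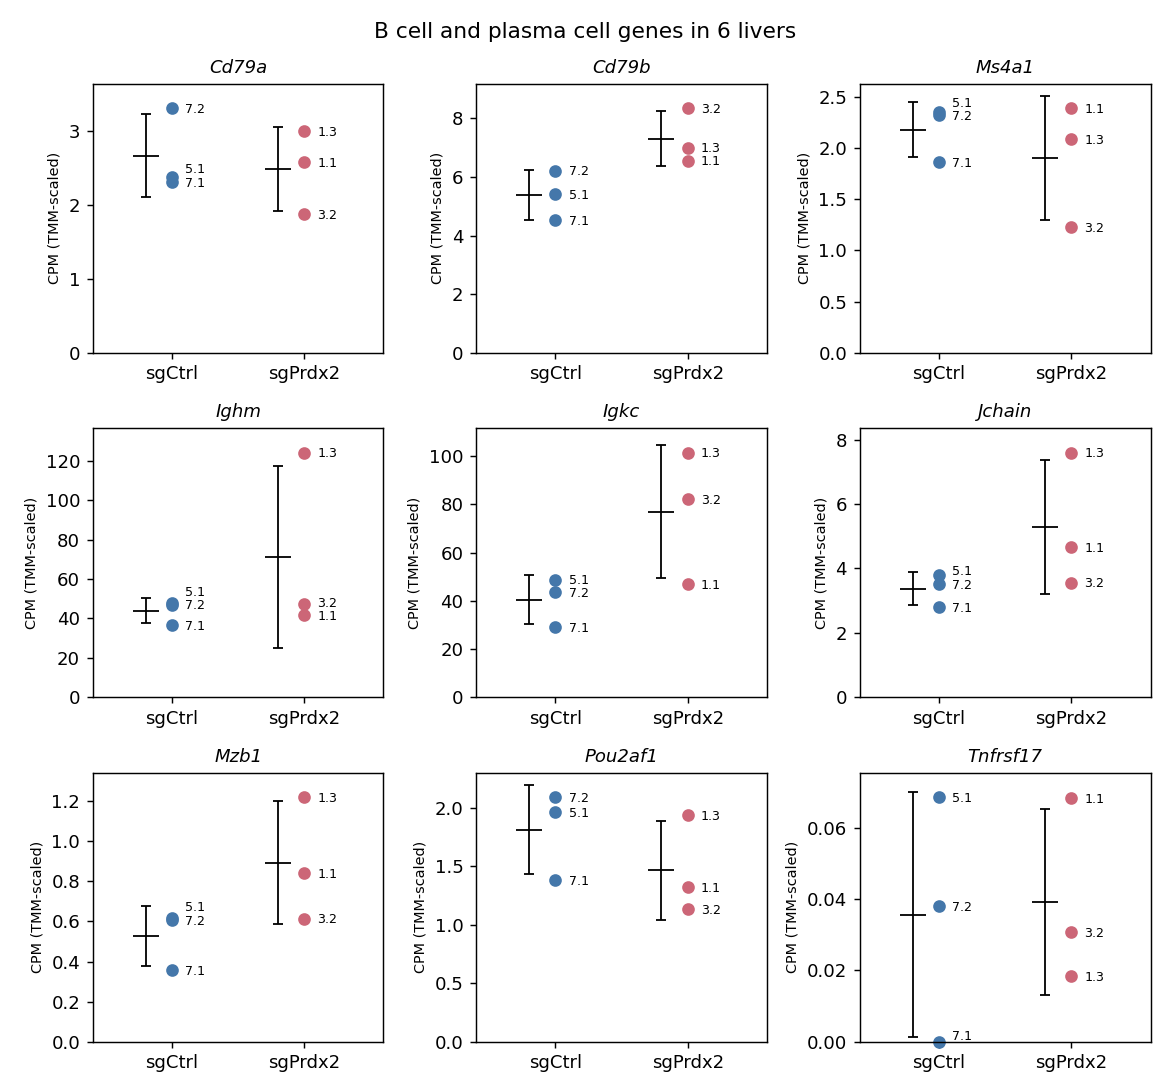
Level of each of the 9 genes in CPM after TMM scaling (y axes from 0, each with its own range) in the 3 sgCtrl and 3 sgPrdx2 livers, with mouse numbers beside the points and the mean ± SD beside each group. Ighm, Igkc, Jchain and Mzb1 were highest in sgPrdx2 mouse 1.3, and only Cd79b had groups that did not overlap.

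Cd79a encodes Igα, one of the signaling chains of the B cell receptor. It stood at 2.38, 2.31 and 3.31 CPM in the sgCtrl livers of mice 5.1, 7.1 and 7.2. In the sgPrdx2 livers of mice 1.1, 1.3 and 3.2 it stood at 2.57, 3.0 and 1.87 CPM. The groups overlapped, with the highest liver in sgCtrl and the lowest in sgPrdx2. The log2 fold change was -0.10 ± 0.25 (SE, n = 3 per group; 95% interval -0.68 to 0.48; adjusted p 0.827, edgeR quasi-likelihood test).

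Cd79b encodes Igβ, the partner chain of Igα. Its CPM was 5.41, 4.52 and 6.22 in sgCtrl and 6.56, 6.99 and 8.35 in sgPrdx2 livers. All 3 sgPrdx2 livers lay above all 3 sgCtrl livers. On the log2 scale sgPrdx2 exceeded sgCtrl by 0.44 ± 0.18 (95% interval 0.02 to 0.86), with an unadjusted p of 0.043 and an adjusted p of 0.187 (edgeR quasi-likelihood test). It was not called. Cd79a and Cd79b, whose proteins work as a pair, thus had log2 fold changes of opposite sign, neither of them called.

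Ms4a1, which encodes the surface protein CD20 and is turned off in plasma cells, stood at 2.35, 1.87 and 2.32 CPM in sgCtrl livers. It stood at 2.39, 2.09 and 1.23 CPM in sgPrdx2 livers. Mouse 3.2 was the lowest for both Ms4a1 and Cd79a and the highest for Cd79b. This was not particular to B cell genes. The same liver was the highest for the housekeeping genes Cox8a (237 CPM) and Ndufa2 (173 CPM). It was the lowest for the leukocyte gene Ptprc (26.7 CPM) and the macrophage gene Adgre1 (28.8 CPM). The cause was not tested. The log2 fold change of Ms4a1 was -0.19 ± 0.28 (95% interval -0.83 to 0.45; adjusted p 0.701, edgeR).

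Ighm, the constant gene of IgM, stood at 48.0, 36.7 and 47.0 CPM in sgCtrl livers. In sgPrdx2 livers it stood at 41.7, 124 and 47.5 CPM. A single liver, mouse 1.3, was far above the rest, and the other 2 sgPrdx2 livers lay inside the sgCtrl range. The log2 fold change was 0.70 ± 0.39 (95% interval -0.21 to 1.6; adjusted p 0.309, edgeR), and without mouse 1.3 it was 0.04.

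Igkc, the constant gene of the kappa light chain, which pairs with heavy chains of every class, stood at 48.5, 29.0 and 43.6 CPM in sgCtrl livers. It stood at 47.0, 102 and 82.2 CPM in sgPrdx2 livers. Mice 1.3 and 3.2 were above all sgCtrl livers, and mouse 1.1 was within the sgCtrl range. This gave a log2 fold change of 0.93 ± 0.30 (95% interval 0.24 to 1.62), with an unadjusted p of 0.015 and an adjusted p of 0.116 (edgeR quasi-likelihood test). DESeq2, run as an alternative, called Igkc (log2 fold change 0.94, adjusted p 0.0191) and no other member, and it called 13.4% of the genes it tested. Without mouse 1.3 the log2 fold change in edgeR was 0.69 (adjusted p 0.219).

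Jchain encodes the joining chain that links units of IgM and of dimeric IgA. It stood at 3.79, 2.80 and 3.52 CPM in sgCtrl and at 4.67, 7.60 and 3.56 CPM in sgPrdx2 livers. Mouse 1.3 was again the highest, while mouse 3.2 lay within the sgCtrl range. Its log2 fold change was 0.65 ± 0.29 (95% interval -0.02 to 1.32; adjusted p 0.211, edgeR), and 0.31 without mouse 1.3.

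Mzb1 encodes a chaperone of the endoplasmic reticulum that helps assemble antibody. It stood at 0.617, 0.356 and 0.609 CPM in sgCtrl and at 0.843, 1.22 and 0.614 CPM in sgPrdx2 livers, on 16 to 66 counts per liver. Its log2 fold change was 0.77 ± 0.36 (95% interval -0.05 to 1.59; adjusted p 0.227, edgeR), and 0.49 without mouse 1.3. In GENCODE M21, 57.2% of the exon bases of Mzb1 also belong to exons of a gene named SPATA24 on the same strand. Reads there could be assigned to either gene or dropped, but the count table has no gene under that name in capitals. A gene written Spata24 in the count table stood at 3.58 to 5.00 CPM in sgCtrl and at 3.94 to 8.60 CPM in sgPrdx2 livers. Whether it is the overlapping gene was not checked.

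Pou2af1 encodes a coactivator of the octamer-binding transcription factors in B cells and plasma cells. It stood at 1.96, 1.38 and 2.09 CPM in sgCtrl and at 1.32, 1.94 and 1.14 CPM in sgPrdx2 livers. The groups overlapped, and 2 of the 3 sgPrdx2 livers lay below the sgCtrl range. Its log2 fold change was -0.30 ± 0.28 (95% interval -0.95 to 0.36; adjusted p 0.544, edgeR).

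Tnfrsf17 encodes BCMA, a survival receptor of plasma cells. It had 3, 0 and 2 counts in sgCtrl livers and 3, 1 and 1 in sgPrdx2 livers, 5 in each group. It did not pass the filter on low counts and was not tested. A count of 0 in the liver of mouse 7.1 allows up to 0.0667 CPM (3 counts) and covers counting error only, so a difference in Tnfrsf17 was not detectable at this depth.

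Of the 8 members that passed the filter, 0 were called by edgeR, beside 3.33% of all genes tested (567 of 17032). At an unadjusted p under 0.05 there were 2 of 8 (Cd79b and Igkc), beside 24.9% of all genes. The groups did not overlap for 1 of 8 (Cd79b), beside 34.2% of all genes. The 8 had a median of 0.54 on the log2 scale, beside -0.02 over all genes tested, and without mouse 1.3 it was 0.17.

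**Figure D2:**
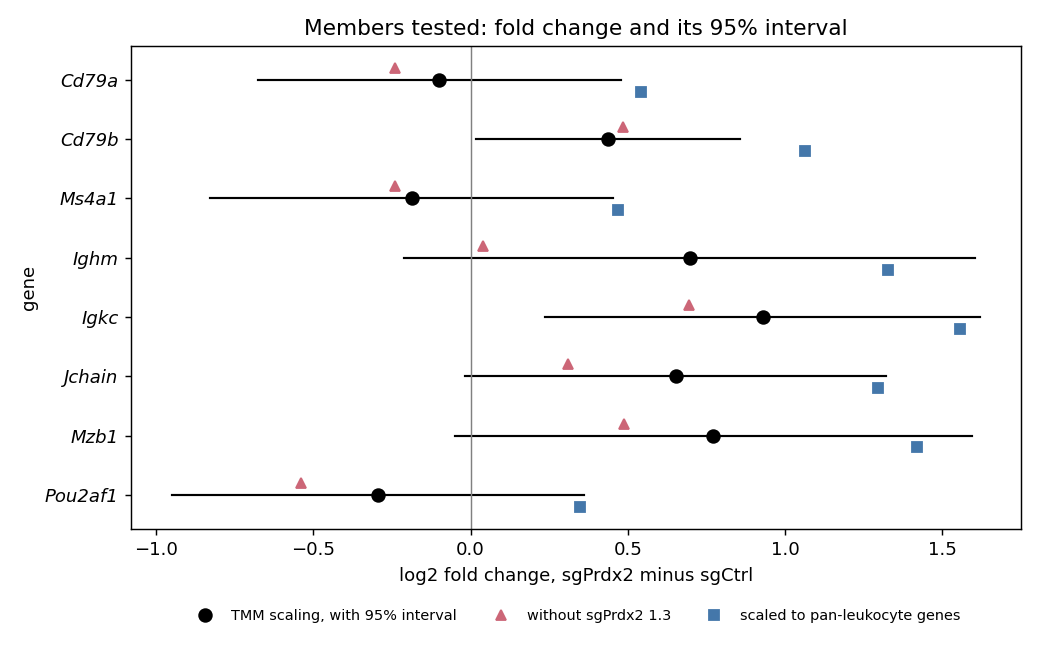
Log2 fold change (sgPrdx2 minus sgCtrl, x axis) of the 8 genes tested, with lines for 95% intervals, triangles for the fit without sgPrdx2 mouse 1.3 and squares for the fit scaled to pan-leukocyte genes. The triangles of Ighm and Jchain (0.04 and 0.31) lie closest to 0 among the antibody genes, and all 8 squares lie above 0.

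Means over the B cell genes and over the plasma cell genes were also read along the 6 livers. Centered on the 6-liver mean of log2(CPM + 0.5), the mean of Cd79a, Cd79b and Ms4a1 ran from -0.21 (sgCtrl mouse 7.1) to 0.17 (sgCtrl mouse 7.2). The mean of Ighm, Igkc, Jchain, Mzb1 and Pou2af1 ran from -0.50 (sgCtrl mouse 7.1) to 0.74 (sgPrdx2 mouse 1.3), and the other 4 livers lay between -0.09 and -0.03. A mean over genes hides single members, since Igkc in mouse 3.2 and Jchain and Mzb1 in mouse 1.1 also lay above all sgCtrl livers.

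Counts of an antibody gene per count of Cd79a within a liver do not depend on how libraries are scaled. For Igkc this ratio was 20.4, 12.5 and 13.2 in sgCtrl and 18.3, 33.9 and 43.9 in sgPrdx2 livers. For Jchain it was 1.6, 1.21 and 1.06 in sgCtrl and 1.81, 2.54 and 1.90 in sgPrdx2 livers, with no overlap. For Mzb1 it was 0.260, 0.154 and 0.184 in sgCtrl and 0.327, 0.407 and 0.328 in sgPrdx2 livers, again with no overlap. With Cd79b in the denominator, the groups overlapped for both genes. Jchain then ran from 0.566 to 0.700 in sgCtrl and from 0.426 to 1.09 in sgPrdx2 livers. Mzb1 ran from 0.0788 to 0.114 in sgCtrl and from 0.0735 to 0.175 in sgPrdx2 livers. These ratios were chosen after the values were seen and carry no test.

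Immunoglobulin transcripts as a whole were a small share of the liver RNA. Summed over 393 immunoglobulin genes and segments, they took 0.0168%, 0.0110% and 0.0155% of counts in sgCtrl and 0.0123%, 0.0276% and 0.0150% in sgPrdx2 livers. These are shares of all counts, without TMM scaling. Mouse 1.3 had the highest share, and on this measure the other 2 sgPrdx2 livers lay within the sgCtrl range. After TMM scaling the constant genes alone summed to 86.9 to 130.4 CPM in sgCtrl livers and to 126, 263 and 173 CPM in sgPrdx2 livers, so that mouse 3.2 also lay above all sgCtrl livers. The mean shares were 0.0144% ± 0.00302 in sgCtrl and 0.0183% ± 0.00815 in sgPrdx2 livers (SD, n = 3 each). Their difference was 0.00388 percentage points, and -0.000762 without mouse 1.3.

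The antibody classes differed more between livers of the sgPrdx2 group than between the groups. Ighm took 61.9%, 68.2% and 63.5% of heavy chain constant counts in sgCtrl livers. In sgPrdx2 livers it took 56.2%, 82.7% and 56.0%. In mouse 1.3 the IgA gene Igha was down to 2.69% of heavy chain counts (95% Wilson interval 2.36% to 3.07%), where the other 5 livers had 9.49% to 17.7%. Mouse 3.2 had the highest share of IgG genes, 30.0% (28.3% to 31.7%), where the other 5 had 10.5% to 16.5%. These intervals cover counting error only.

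The switched classes, all heavy chain constant genes other than Ighm and Ighd, took 26.8% ± 4.66 of heavy chain counts in sgCtrl and 28.8% ± 13.8 in sgPrdx2 livers (SD, n = 3 each; exact permutation, two-sided, p = 0.9 where 0.1 is the smallest possible). Lambda genes took 9.81% ± 2.12 of light chain constant counts in sgCtrl and 8.23% ± 1.70 in sgPrdx2 livers (exact permutation test p = 0.5). Neither share differed beyond the spread between livers.

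Among the 11 constant genes tested, Ighm and Igkc included, 0 were called, beside 3.33% of all genes. Of these constant genes, 9 had a positive log2 fold change, and their median was 0.70. This median was 0.29 without mouse 1.3 and 0.31 when libraries were scaled to 6 housekeeping genes. Ighg2c, an IgG class of C57BL/6 mice, had the smallest p. It stood at 2.63, 1.16 and 2.23 CPM in sgCtrl and at 4.76, 4.05 and 7.06 CPM in sgPrdx2 livers, with no overlap (log2 fold change 1.39 ± 0.34, adjusted p 0.0642, edgeR). Ighg2b (log2 fold change 0.70) and the lambda gene Iglc1 (1.24) had adjusted p of 0.205 and 0.216 in edgeR. Iglc1 was at 6.71 CPM in mouse 1.3 and at 1.18 to 2.27 CPM elsewhere. Ighe, the IgE gene, had 0 counts in the 3 sgCtrl livers and 1 in each sgPrdx2 liver, and was not tested.

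**Figure D3:**
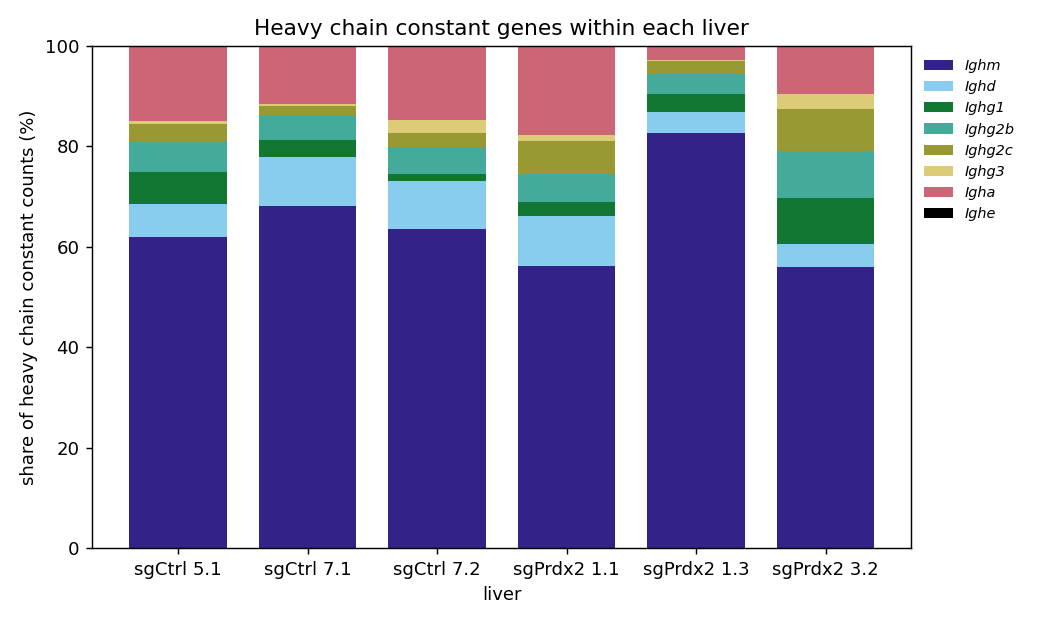
Share of heavy chain constant counts (y axis, %) taken by each constant gene in each of the 6 livers (x axis), stacked to 100%. Ighm was at 82.7% and Igha at 2.69% in sgPrdx2 mouse 1.3, and the IgG genes together were at 30.0% in sgPrdx2 mouse 3.2.

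Variable segments show how evenly the antibody transcripts were spread over V genes. Igkv3-2, shown above, had 13, 7 and 79 counts in sgCtrl and 32, 353 and 47 in sgPrdx2 livers. In mouse 1.3 it made up 33.9% of 1040 kappa variable counts (95% Wilson interval 31.1% to 36.9%), whereas the highest kappa segment of the other 5 livers made up 13.1% to 17.1%. Igkv5-39 had 135 counts in mouse 1.3 and 9 to 63 in the others, and Igkv10-96 had 44 and 3 to 34. So the liver with the most Ighm, Igkc and Jchain was also the one with the most uneven kappa segments.

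Heavy chain segments were sparser, with 67 to 319 counts per liver over 183 Ighv segments. The highest segment took 7.86%, 12.4% and 8.25% in sgCtrl livers and 24.1%, 12.9% and 8.96% in sgPrdx2 livers, and an exact two-sided permutation test gave p = 0.2. The 24.1% in mouse 1.1 came from Ighv5-9-1, with 51 counts there and 0 to 5 in the other livers (interval 18.8% to 30.2%). Ighv1-53 had 41 counts in mouse 1.3 and 0 to 13 elsewhere, and Ighv1-26, the segment with the most counts in all, had 4 to 24 per liver. For lambda, Iglv1 had 74 counts in mouse 1.3 and 8 to 26 in the others, Iglv2 had 18 and 3 to 7, and Iglv3 had 2 to 5 counts in every liver. Livers therefore differed in which segments led, and no segment led in all 3 livers of a group except Iglv1, which led in all 6.

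Other genes of the B cell program were read from a list of 32 genes of the B cell receptor and mature B cells. Of the 30 tested, 2 were called, both lower in sgPrdx2 livers, beside 1.54% of all genes called lower. These were Cd180, a Toll-like receptor relative on B cells, macrophages and dendritic cells, and Btk, a kinase of B cell receptor signaling that myeloid cells also use. Cd180 fell from 27.1 to 39.5 CPM in sgCtrl livers to 13.6 to 16.7 CPM in sgPrdx2 livers (log2 fold change -1.20 ± 0.17, adjusted p 0.0328, edgeR). Btk fell from 9.61 to 11.9 CPM to 5.70 to 6.73 CPM (log2 fold change -0.85 ± 0.15, adjusted p 0.0409, edgeR). Cd72 (-0.65) and Cd22 (-0.49), receptors that restrain B cell signaling, had adjusted p of 0.071 and 0.0863 in edgeR. Without sgCtrl mouse 5.1 or 7.2 or sgPrdx2 mouse 1.1 or 1.3, edgeR called 0 genes in the whole table. The calls of Cd180 and Btk were lost there with all others, which says nothing particular to these 2 genes. In those fits the log2 fold change ran from -1.30 to -1.08 for Cd180 and from -0.90 to -0.80 for Btk. The call of Btk was also lost when libraries were scaled to leukocyte genes. The median of the list was -0.19 and 25 of 30 genes were negative, beside 8802 of 17032 over all genes tested. This median was -0.56 with libraries scaled to 6 housekeeping genes and 0.44 with libraries scaled to leukocyte genes, so its sign depended on the scaling. Pax5, a transcription factor that defines the B lineage and was picked out after its values were seen, was not called (log2 fold change 0.31, adjusted p 0.400, edgeR).

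Of 22 plasma cell genes, 20 were tested and 1 was called, lower in sgPrdx2 livers, beside 1.54% of all genes called lower. Slamf7, a surface receptor of plasma cells, natural killer cells and macrophages, fell from 20.6 to 27.3 CPM to 10.5 to 13.5 CPM (log2 fold change -0.94 ± 0.16, adjusted p 0.0383, edgeR). With any 1 of the same 4 livers left out (mice 5.1, 7.2, 1.1 and 1.3), edgeR called 0 genes in the whole table. The Slamf7 call was lost there with all others, and its log2 fold change in those fits ran from -0.97 to -0.81. On the leukocyte scale its call was also lost. Prdm1, which encodes the plasma cell regulator Blimp-1 and is also used by T cells and myeloid cells, stood at 3.31 to 3.60 CPM in sgCtrl and 1.72 to 2.26 CPM in sgPrdx2 livers (log2 fold change -0.77, adjusted p 0.065, edgeR). Cxcr4 and Cd28 had log2 fold changes of -0.54 and -0.75 (adjusted p 0.142 and 0.178, edgeR). The median of the list was 0.06, and many of its secretory genes are also expressed by hepatocytes. It turned negative without sgCtrl mouse 5.1 (-0.058), without sgPrdx2 mouse 1.1 (-0.019) and on the housekeeping scale (-0.30), and was 0.68 on the leukocyte scale. In a shorter list of 7 of these genes (Irf4, Prdm1, Sdc1, Slamf7, Cd28, Derl3 and Eaf2), the median was -0.39, with 3 positive and 4 negative values. Slamf7 was the 1 gene called. This shorter list is not limited to plasma cells either, since Slamf7 and Prdm1 are shared as said above. Sdc1 stood at 109 to 199 CPM over the livers, where Jchain stood at 2.80 to 7.60 CPM.

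Signals that keep or draw B cells were not called (0 of 9 tested, beside 3.33% of all genes, with a median of -0.36). The median was -0.15 without sgCtrl mouse 5.1, -0.74 on the housekeeping scale and 0.27 on the leukocyte scale. Ltb, a lymphotoxin chain, had a value of -0.42 on the log2 scale (adjusted p 0.15, edgeR). Tnfsf13b, which encodes the B cell survival factor BAFF, had -0.39 (adjusted p 0.381), and the chemokine genes Ccl21a and Ccl19 had -1.14 and -0.67 (adjusted p 0.385 and 0.437, edgeR). Ccl21a was at 6.49 CPM in sgCtrl mouse 5.1 and at 1.62 and 1.2 CPM in the other sgCtrl livers. Of 8 tested genes that carry or bind antibody in the liver, 0 were called, beside the same 3.33%. Pigr, the receptor that moves IgA and IgM across epithelium, stood at 611 to 1114 CPM in sgCtrl and 1403 to 1943 CPM in sgPrdx2 livers, without overlap (log2 fold change 1.0 ± 0.26, adjusted p 0.0722, edgeR). The Fc receptor genes Fcgr1, Fcgr4 and Fcgr3 had log2 fold changes of -0.90, -0.82 and -0.60 (adjusted p 0.0671, 0.0925 and 0.142, edgeR).

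Lists of genes of other blood cells were read beside these, where 3.33% of all genes tested were called and 1.54% were called lower. Of 10 pan-leukocyte genes, 4 were called, all lower in sgPrdx2 livers, and all 10 had a negative log2 fold change with a median of -0.58. Their summed level was 992 to 1187 CPM in sgCtrl and 638 to 763 CPM in sgPrdx2 livers. Itgb2 (log2 fold change -1.06, adjusted p 0.0313, edgeR) and Cd53 (-0.88, adjusted p 0.0409) had the smallest p. Of 15 T cell genes, 1 was called, Cd8a (-0.84, adjusted p 0.0486, edgeR), and the median was -0.15. Of 10 macrophage genes, 1 was called, Mpeg1 (-0.82, adjusted p 0.0394, edgeR), followed by Adgre1 (-0.81, adjusted p 0.069), and the median was -0.40. With libraries scaled to the pan-leukocyte genes, Cd180 was still called lower (log2 fold change -0.55, adjusted p 0.0342, edgeR), while Btk (-0.22, adjusted p 0.306) and Slamf7 (-0.31, adjusted p 0.115) were not.

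Smaller lists gave few calls, beside 3.33% of all genes tested. Of the plasmacytoid dendritic cell genes, 0 of 8 were called (Irf8 -0.51, Tcf4 -0.34), and likewise 0 of 6 neutrophil genes (Csf3r -0.42, Mmp8 -1.10) and 0 of 5 erythroid genes (Alas2 1.0, Hbb-bt -0.46). Of 7 genes of immature B cells, 2 had enough counts to be tested. Rag2 and Vpreb2 had 0 counts in all 6 livers, and Rag1 had 1 count in each group. Dntt, with 135 to 444 counts per liver, was tested and not called (log2 fold change -0.36). Cd93 was called lower in sgPrdx2 livers (-0.85, adjusted p 0.0358, edgeR). Cd93 is also a gene of endothelial and myeloid cells.

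**Figure D4:**
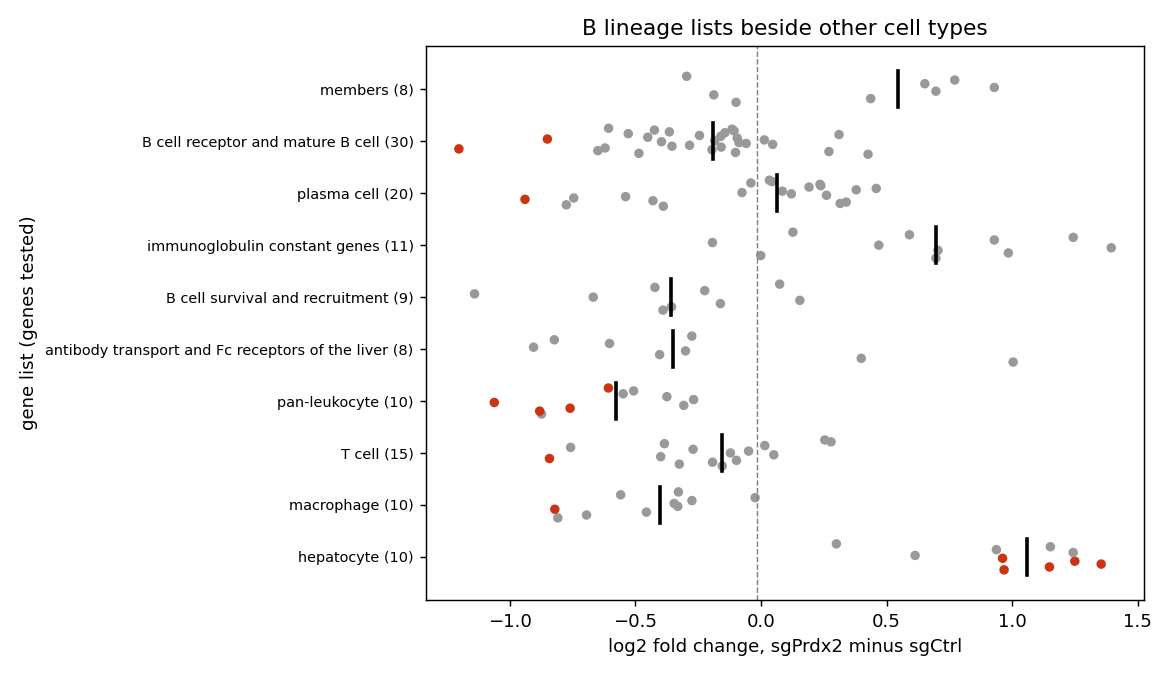
Log2 fold change (x axis) of each gene tested in 10 lists (y axis, number of genes tested in parentheses), with red points for genes called by edgeR, a black bar at each list median and a dashed line at the median of all genes. The medians were 0.54 for the members, -0.19 for B cell genes, 0.70 for immunoglobulin constant genes, -0.58 for pan-leukocyte genes and 1.06 for hepatocyte genes.

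The members were also compared relative to leukocyte RNA, with libraries scaled to the pan-leukocyte genes. On this scale all genes had a median of 0.61 (log2), and 49.2% of genes were called. On it, 5 of the 8 members were called, all higher in sgPrdx2 livers: Igkc (log2 fold change 1.56, adjusted p 0.00342), Mzb1 (1.42, 0.0114), Ighm (1.33, 0.0168), Jchain (1.3, 0.00733) and Cd79b (1.06, 0.00365), all by edgeR. Each of these values lies above its value under TMM scaling by about as much as the median of all genes does. Cd79a, Ms4a1 and Pou2af1 turned from negative to positive (0.54, 0.47 and 0.35) and were not called. Scaled to 6 housekeeping genes instead, the median of all genes was -0.38, 0 members were called, and the median of the members was 0.19. On that scale the log2 fold change was 0.56 for Igkc, 0.32 for Jchain and 0.06 for Cd79b (adjusted p 0.215, 0.516 and 0.798, edgeR).

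The genes whose levels over the 6 livers lay closest to those of the members were ranked among 13983 genes outside the lists with a mean of at least 1 CPM. Closeness was the root mean square difference of centered log2(CPM + 0.5) values. For the mean of Cd79a, Cd79b and Ms4a1 the closest were Ppp1r8, Asb3, Spata33, Tpbgl and Cep57l1 (0.0639 to 0.0721), all with log2 fold changes between -0.04 and 0.14. For the mean of Ighm, Igkc, Jchain, Mzb1 and Pou2af1 the closest included Slc25a22, Csrnp1, Gm30784 and Hhex (0.117 to 0.182), with log2 fold changes of 0.16 to 0.60. Slc25a22, a mitochondrial glutamate carrier, stood at 114 to 159 CPM in sgCtrl livers and at 179, 250.3 and 182 CPM in sgPrdx2 livers, highest in mouse 1.3 as were Ighm, Igkc, Jchain and Mzb1.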

How the data were processed

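Frozen livers of 6 mice were sequenced as total RNA libraries. The authors deposited a table of read counts per gene and liver, whole numbers without normalization. HISAT2, HTSeq, DESeq2 and the build GRCm38 are named in the submitters' processing notes. Their versions, the annotation and the strand setting are not given in the sources used here. A second deposited table holds only the authors' DESeq2 comparison and was not used.

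Groups came from the sample labels. Nothing but the mouse numbers says how the livers are related. Mice 7.1 and 7.2, and mice 1.1 and 1.3, share a first number, and what it stands for is not stated. The tests treated all 6 livers as independent, which could not be checked. Each p-value sets the difference between the groups against the spread between these livers. The counts were fitted with edgeR 4.0.16 under R 4.3.3: filterByExpr (minimum count 10), TMM scaling, glmQLFit and glmQLFTest on all 6 livers without covariates, and Benjamini-Hochberg adjustment over 17032 genes. The common biological coefficient of variation was 0.213. Standard errors came from the fold change (log2) over the root of its F statistic, and intervals are at 95%. The procedure was tested on simulated data. Single values were compared by two-sided exact permutation tests (scipy 1.17.1), with Wilson intervals on shares. Alternatives were DESeq2 1.42.0, other scalings and filters, and leaving out each liver. Exon positions and sequences came from GENCODE M21, whose build is that of the notes; sequences were aligned with Biopython 1.88. All 9 symbols matched this annotation.

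Named were all members, genes of the B lineage lists called or among the 4 smallest p, the 2 smallest p of other lists, the 3 highest variable segments of each class, and the 5 genes closest to each profile. Results on some genes that this rule names are not reported here. Members and lists were chosen with earlier results of these data known.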

Additional observations from a re-analysis of the deposited data

How the results depend on the processing

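Tnfrsf17 had too few counts to be tested, and with 3 livers per group log2 fold changes of 1.39 (Ighg2c) and 1.24 (Iglc1) were not called. The number of members called was 0 under TMM and in 13 of 15 alternatives (each liver left out among them). It was 5 when scaled to the pan-leukocyte genes, where 49.2% of all genes were called, and 1 in DESeq2, where 13.4% were. The B lineage lists had 3 of 84 tested genes called, beside 3.33% of all genes. The same lists had 10 of 84 when scaled to the housekeeping genes (5.81% of all genes) and 33 of 84 when scaled to the pan-leukocyte genes (49.2%). In DESeq2 11 of 83 were called (13.4% of all genes), and without a filter on low counts 8 of 94 (3.94%). At an adjusted p under 0.1 there were 10 of 84 (10.4%). Leaving out each liver gave 0 to 5 in these lists. The number was 0 without sgCtrl mouse 5.1 or 7.2 or sgPrdx2 mouse 1.1 or 1.3, where edgeR called 0 genes in the whole table. It was 5 without sgCtrl mouse 7.1 or sgPrdx2 mouse 3.2, where 2.26% and 3.53% of all genes were called. In the 4 fits with 0 calls, those of Cd180, Btk and Slamf7 were lost with all the others. Btk and Slamf7 were also not called on the pan-leukocyte scale. The log2 fold change of Cd79a turned positive when scaled to the pan-leukocyte genes (0.54), without sgCtrl mouse 7.2 (0.089) and without sgPrdx2 mouse 3.2 (0.072), and over the livers left out it ran from -0.24 to 0.089. Ms4a1 turned positive on the first scaling (0.47) and without sgPrdx2 mouse 3.2, and over the livers left out ran from -0.38 to 0.049, and Pou2af1 on the first scaling (0.35). The cause was not tested. The difference in switched share (2.01 percentage points) ran from -3.31 without sgPrdx2 mouse 3.2 to 9.82 without sgPrdx2 mouse 1.3, and was -0.35 without sgCtrl mouse 7.1 and -0.47 without sgPrdx2 mouse 1.1. The log2 difference of Igkc per Cd79a count was 1.0, and 0.45 with Cd79b as the denominator, chosen after seeing the data. No paired analysis was possible because the groups share no mouse numbers.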
